A study of Caenorhabditis elegans with 2 samples.

Results

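Occupancy of the zinc finger protein ZTF-4 was read at the long intergenic non-coding RNA (lincRNA) genes of the nematode Caenorhabditis elegans. The annotation of assembly WBcel235 (Ensembl release 115) holds 194 genes of biotype lincRNA among 46890 genes on the 6 nuclear chromosomes, and all 194 were taken. Of these, 169 have a name that starts with linc- and 25 have other names. The window of a gene ran from 1000 bp upstream of its annotated 5' end to its 3' end, and a peak belonged to a gene when its summit, the base of highest signal, lay in that window.

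The study was a chromatin immunoprecipitation and sequencing (ChIP-seq) experiment with 1 group of 2 biological replicates. Both came from L1 larvae, the first larval stage, taken as whole animals of mixed sex. Both were of strain OP322, with the allele unc-119(ed3) on chromosome III and the insertion wgIs322, which supplies eGFP-tagged ztf-4. The tagged protein was therefore read from a transgene, no strain without it was part of the groups, and the authors' control library was not analysed here. Per the deposited records, regions were called in each replicate and in the pooled replicates. Filtering on the irreproducible discovery rate (IDR), a measure of how well region ranks repeat from one replicate to the other, left 1898 of the 23044 pooled regions, here called IDR peaks. They were the strongest pooled regions, with signals from 49.6 to 904. Signal is the caller's height of a region. Pooled signals mostly lie near the sum of the replicates' signals, so a pooled value is not set against a replicate's value. The weaker of the linc-84 peaks described below is an exception, with a pooled signal well below that sum. The files hold no read counts, so depth is unknown.

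LincRNAs are long RNAs without a recognised protein-coding frame, transcribed from DNA between or beside protein-coding genes. Most worm lincRNAs have no known role. A promoter in a compact genome often serves transcripts in both directions, and a ChIP peak has no strand, so a peak beside a lincRNA can equally lie at the promoter of a neighbouring protein-coding gene. Each summit was therefore placed on both scales. It was at the lincRNA 5' end when it lay at most 300 bp upstream or 100 bp downstream of that end. It was shared with a protein-coding promoter when it lay at most 1000 bp upstream or 200 bp downstream of a protein-coding gene's 5' end.

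The sequences below are the genomic plus strand of WBcel235 (RefSeq copy) from 50 bp before to 50 bp after 6 summits, and show both kinds of peak: the strongest, the strongest shared one, a pair of compact shared 5' ends with little distance to either gene, and both unshared 5' ends. Capitals mark every match to GAGAGA or CCGCCC on either strand, so that TCTCTC is a match as well. The linc-128 peak was the strongest of all lincRNA windows (V:1151449-1151549), and the linc-78, linc-33 and linc-129 peaks lay between a lincRNA and a protein-coding gene transcribed away from it (X:2242946-2243046, X:11563811-11563911 and III:10817104-10817204). The linc-103 and linc-90 peaks were at lincRNA 5' ends outside protein-coding promoters (X:6256508-6256608 and III:352200-352300).
linc-128: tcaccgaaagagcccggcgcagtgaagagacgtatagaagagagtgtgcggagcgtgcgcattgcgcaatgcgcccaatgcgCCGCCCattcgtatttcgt
linc-78: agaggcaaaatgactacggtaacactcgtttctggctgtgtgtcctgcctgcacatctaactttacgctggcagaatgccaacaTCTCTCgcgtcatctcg
linc-33: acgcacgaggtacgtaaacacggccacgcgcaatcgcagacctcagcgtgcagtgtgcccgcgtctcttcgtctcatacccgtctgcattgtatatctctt
linc-129: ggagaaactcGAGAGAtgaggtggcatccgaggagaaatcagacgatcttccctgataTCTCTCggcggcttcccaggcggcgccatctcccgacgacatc
linc-103: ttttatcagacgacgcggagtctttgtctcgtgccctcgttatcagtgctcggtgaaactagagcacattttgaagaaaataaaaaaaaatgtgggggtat
linc-90: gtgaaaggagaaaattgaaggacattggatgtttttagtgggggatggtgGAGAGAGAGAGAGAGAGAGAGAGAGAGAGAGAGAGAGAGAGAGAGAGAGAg

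At the linc-90 summit begins an uninterrupted GA repeat of 56 bp, which fills the right side of the printed sequence. Within 100 bp of that summit GAGAGA starts at 30 positions, a number reached by 4 of all 1898 IDR peaks, this one included. The linc-103 and linc-33 sequences hold neither motif, and linc-129 holds GAGAGA once on each strand. The linc-128 window was rich in G and C, at 61.2% over the 201 bp around the summit, the highest of the 24 IDR peaks in lincRNA windows, whose lowest was 35.8% and median 46.0%. The median over all IDR peaks was 43.3%.

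IDR peaks were found at a small share of the lincRNA genes. Of the 194 genes, 20 held an IDR summit in their window (10.3%, exact Clopper-Pearson 95% interval 6.41 to 15.5), against 7.81% of the 19973 protein-coding genes in windows drawn the same way. These intervals, here and below, cover counting error only, and no test between the classes was made. The 20 genes shared 24 peaks. linc-129 held 3 summits, linc-84, linc-90 and linc-91 held 2 each, and 1 peak lay in the windows of both linc-110 and linc-133, which overlap on opposite strands. The remaining 174 genes held no IDR summit. Among these, 68 had a summit of the pooled list, which also contains background, 30 had a region in a replicate list alone, and 76 had a region in none of the lists.

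**Figure D1:**
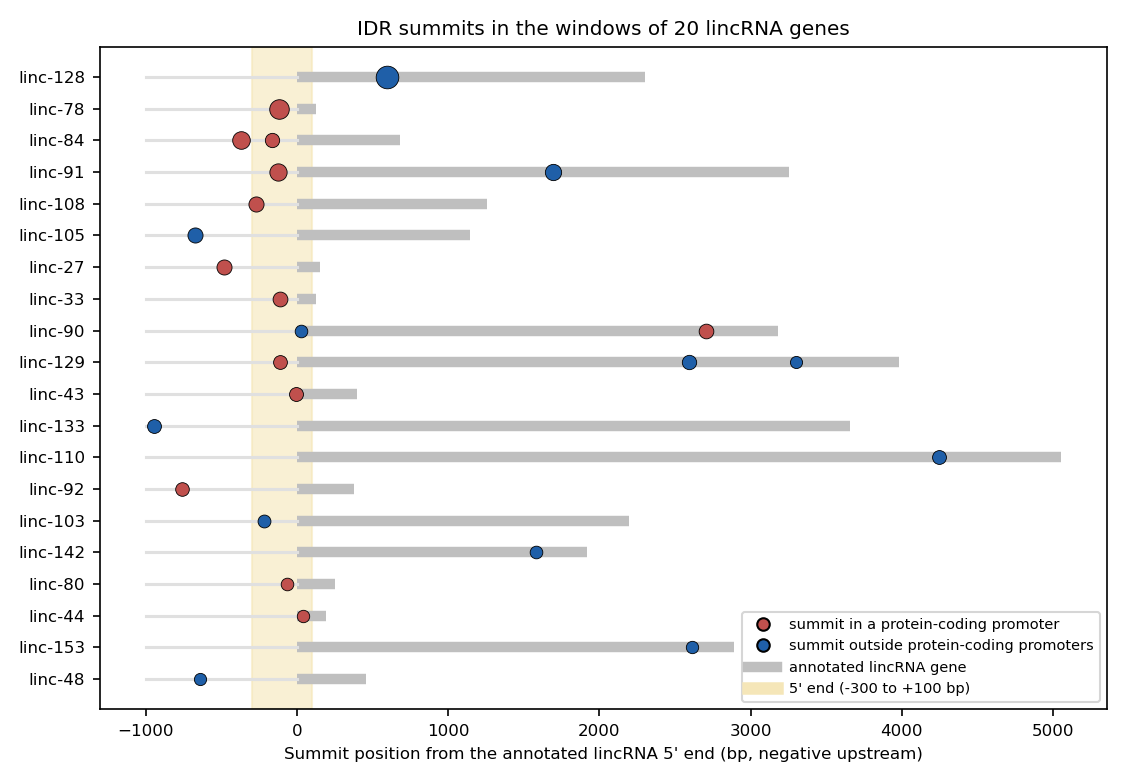
Each row is 1 of the 20 lincRNA genes with an IDR summit, ordered by their highest signal. The x axis gives the distance in bp from the annotated 5' end, grey bars are the genes and thin lines the 1000 bp upstream. Points are the summits, with an area that grows with signal, and the shaded band is the 5' end. In the band lie 9 summits inside protein-coding promoters and 2 outside them.

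Window length bears on these shares, because lincRNA genes ran from 101 to 6035 bp (median 761). The median length was 1200.5 bp for genes with an IDR summit and 744 bp for those without. In a window of equal length for every gene, 1000 bp before and 200 bp after the 5' end, 16 lincRNA genes held a summit (8.25%, 4.79 to 13.0), against 6.07% of protein-coding genes. Genes of several short RNA classes gave larger shares in the same window. For small nucleolar RNA (snoRNA) genes, whose products guide RNA modification, the share was 26.0% (21.5 to 31.0), for microRNA genes 11.5% (7.89 to 16.0), for small nuclear RNA genes 10.9% (6.06 to 17.5) and for transfer RNA genes 9.15% (6.99 to 11.7). Genes of the biotype ncRNA stood at 5.54% (5.04 to 6.07) and antisense RNA genes at 5% (1.64 to 11.3). Pseudogenes stood at 0.470% and piRNA genes at 0.950%, and 0 of 20 ribosomal RNA genes held a summit (exact interval up to 16.8%). The interval of the lincRNA genes overlapped those of the protein-coding, ncRNA, antisense RNA, ribosomal RNA, microRNA, small nuclear RNA and transfer RNA genes, and lay apart from those of the snoRNA genes, piRNA genes and pseudogenes.

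**Figure D2:**
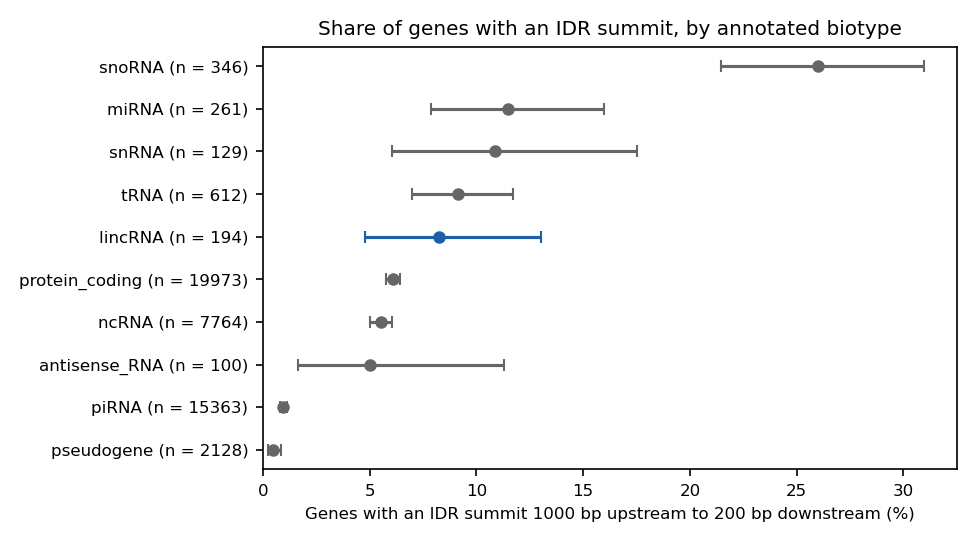
The x axis gives the percentage of genes of each annotated biotype (y axis, with the number of genes) that held an IDR summit in the window of 1000 bp before and 200 bp after the 5' end, with exact 95% intervals as bars. The lincRNA genes, in blue at 8.25%, lie between snoRNA genes at 26.0% and pseudogenes at 0.470%.

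Of the 24 peaks, 13 were shared with a protein-coding promoter (54.2%, 32.8 to 74.4), and the same was true of 49.3% of all IDR peaks. The other 11 lay outside such promoters. The share rests on the width of the promoter window, and was 25% with one of 300 bp upstream and 100 bp downstream. At gene level, 9 lincRNA genes had shared peaks only, 8 had unshared peaks only, and linc-90, linc-91 and linc-129 had both kinds. At the lincRNA 5' end 11 genes held a summit (5.67%, 2.86 to 9.92), against 3.6% of protein-coding genes at their own 5' ends. Of these 11, 9 were shared with a protein-coding promoter and 2, linc-90 and linc-103, were not. With the narrower promoter window 8 were not, and in the 1898 strongest regions of each replicate the number was 1 in replicate 1 (linc-90) and 5 in replicate 2. Summits farther upstream were found at 6 genes, 3 of them shared, and summits in the gene body at 7 genes, of which only the one at linc-90 was shared. A gene with several peaks, such as linc-84 or linc-129, counts in more than 1 of these zones.

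Most shared peaks lay in the promoter of a protein-coding gene on the other strand from the lincRNA. The annotation itself leans that way. Of the 54 lincRNA 5' ends in a protein-coding promoter, 41 were in one on the opposite strand, so the count alone shows no preference of the peaks. In 10 of the 13 every protein-coding gene whose promoter held the summit was on the opposite strand from the lincRNA, and in the other 3, at linc-43, linc-80 and linc-92, at least 1 was on the same strand. The summit was nearer to the lincRNA 5' end in 9 of the 13 and nearer to the protein-coding 5' end in 4. The assignment is thus one of position only, and which of the transcripts a peak belongs to was not tested.

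The strongest shared peak lay between linc-78 (X:2243115-2243239, plus strand) and rpl-11.2, a gene for a large-subunit ribosomal protein, on the minus strand. The region covered X:2242917-2243064, in intergenic sequence. Its signal was 79.3 in replicate 1 (rank 209), 103 in replicate 2 (rank 101) and 185 in the pooled list (rank 130). The summit was 119 bp upstream of linc-78 and 378 bp upstream of rpl-11.2, and the 5' end of the ncRNA gene AH9.7 lay within 300 bp. The printed linc-78 sequence holds 1 GAGAGA match.

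At linc-33 (X:11563625-11563749, minus strand) the summit lay 112 bp upstream of the lincRNA and 62 bp upstream of trpp-9, a gene named for a subunit of the TRAPP vesicle-tethering complex, on the plus strand. The region X:11563686-11564035 had signals of 35.1 in replicate 1, 53.7 in replicate 2 and 91.3 in the pool. linc-129 (III:10817263-10821245, plus strand) starts beside sca-1, the gene of the sarco-endoplasmic reticulum calcium pump, on the minus strand. Its 5' peak at III:10816979-10817328 had its summit 109 bp upstream of linc-129 and 304 bp upstream of sca-1. The 5' end of the ncRNA gene K11D9.6 lay within 300 bp. The signals of this peak were 40.9 and 34.6 in replicates 1 and 2 and 74.8 in the pool. The replicates stood closer to each other here than at linc-33.

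linc-108 (V:15565170-15566425, minus strand) faces away from acs-2, which encodes an acyl-CoA synthetase of fatty acid breakdown. The region V:15566522-15566871 gave 48.5 in replicate 1, 45.3 in replicate 2 and 96.9 in the pool, and its summit was 272 bp upstream of linc-108 and 697 bp upstream of acs-2. At linc-44 (II:5781921-5782113, minus strand) the summit was in an exon, 40 bp downstream of the 5' end and 447 bp upstream of K05F1.6. This was a weak peak, with 20.6 in replicate 1, 28.0 in replicate 2 and 53.8 in the pool, and the 5' ends of a transfer RNA gene and of the ncRNA gene F10C1.16 lay within 300 bp. At linc-27 (II:6369727-6369877, minus strand) a peak of pooled signal 95.9, with 52.3 in replicate 1 and 41.8 in replicate 2, lay 483 bp upstream. It was 943 bp upstream of lin-23, the gene of an F-box protein of a ubiquitin ligase, and so near the outer edge of that promoter window.

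Chromosome I held 2 genes with shared peaks on opposite strands. At linc-84 (I:8865945-8866624, plus strand) 2 overlapping regions lay in the promoter of F55H12.7, on the minus strand. The stronger, I:8865401-8865750, had its summit 369 bp upstream of linc-84 and only 27 bp upstream of F55H12.7, with a pooled signal of 144 and 77.3 in replicate 2. Replicate 1 had no summit within 100 bp of it. The second, I:8865603-8865952, had its summit 167 bp upstream of linc-84 and 229 bp upstream of F55H12.7, with 78.0 in replicate 1, 41.9 in replicate 2 and 82.8 in the pool. Replicate 1 thus had a summit within 100 bp of the second peak only. Replicate 2 had a summit within 100 bp of each, with the higher signal at the first. linc-91 (I:4699610-4702866, plus strand) had a 5' peak at I:4699313-4699662, 122 bp upstream of it and 913 bp upstream of chd-7, which encodes a chromodomain helicase of chromatin. Its signal was 95.3 in replicate 1, 44.2 in replicate 2 and 137 in the pool.

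The shared peaks on the same strand as a protein-coding gene were fewer and not strong. At linc-43 (X:13141635-13142031, plus strand) the summit lay 3 bp upstream of the lincRNA and 31 bp downstream of the 5' end of F09A5.3, in an exon of that gene. The signals were 44.1 and 32.2 in replicates 1 and 2 and 76.6 in the pool. At linc-80 (I:8974865-8975116, minus strand) the summit was 65 bp upstream and 596 bp upstream of F32H2.12, with 29.9, 38.9 and 56.7 in replicate 1, replicate 2 and the pool. At linc-92 (V:5789946-5790325, minus strand) the summit was 761 bp upstream, in the promoters of both F44E7.9 on the opposite strand (144 bp upstream of it) and nhr-142, a nuclear hormone receptor gene on the same strand. That peak had 24.8 in replicate 1, 45.1 in replicate 2 and 71.8 in the pool.

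Peaks at a lincRNA 5' end away from any protein-coding promoter were found at linc-103 and linc-90. linc-103 (X:6256778-6258976, plus strand) stands alone, with the nearest protein-coding 5' end, that of W05H9.4, 7090 bp from the summit. Its peak X:6256383-6256732 had its summit 220 bp upstream of the lincRNA in intergenic sequence. The signal was 14.9 in replicate 1 (rank 6845), 48.3 in replicate 2 (rank 546) and 60.5 in the pool (rank 1309). Replicate 2 was 3.24 times replicate 1 there, the widest ratio among the 22 lincRNA peaks matched in both replicates, and 98.5% of the IDR peaks matched in both had a smaller gap. The linc-103 peak was thus carried mostly by replicate 2.

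linc-90 (III:352222-355402, plus strand) overlaps the protein-coding gene gei-4 on the opposite strand along most of its length, and so is not intergenic in this annotation. Its 5' peak III:352075-352424 had its summit 28 bp downstream of the 5' end, in a linc-90 exon and a gei-4 intron, at the start of the GA repeat in the printed linc-90 sequence. The signals were alike in both replicates, at 28.6 (rank 1707) and 30.4 (rank 1438), with 56.7 in the pool (rank 1498). Whether reads map uniquely within that repeat was not tested. A second and stronger peak, III:354754-355103, lay in a linc-90 intron 2707 bp downstream of the lincRNA 5' end and 129 bp upstream of gei-4. It gave 41.6 in replicate 1, 51.2 in replicate 2 and 89.2 in the pool.

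The strongest peak of all lay inside a lincRNA gene and far from protein-coding promoters. It covered V:1151387-1151592 in an exon of linc-128 (V:1150906-1153207, plus strand), with its summit 593 bp downstream of the 5' end. The nearest protein-coding 5' end, that of the calmodulin gene cmd-1, was 4772 bp away. Its signal was 125 in replicate 1 (rank 64), 138 in replicate 2 (rank 50) and 260 in the pool (rank 57 of 1898). Both replicates thus placed it among their strongest regions. At 206 bp or less, this region and that of linc-78 were narrower than the other 22, which had the common width of 350 bp.

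Other unshared peaks in gene bodies were weaker. In linc-91 an exonic peak at I:4701126-4701475, 1691 bp into the gene, gave 49.8 in replicate 1, 69.3 in replicate 2 and 118 in the pool. linc-129 held 2 exonic peaks, 2591 and 3302 bp into the gene. The first (III:10819679-10820028) gave 42.0 and 41.8 in replicates 1 and 2 and 83.9 in the pool, in sequence that is also an exon of the ncRNA gene K11D9.8, and the second (III:10820390-10820739) gave 28.2, 17.5 and 49.9. In linc-142 (X:12517114-12519034, minus strand) the summit of an exonic peak also fell in an intron of scd-1, on the same strand. That peak had a pooled signal of 57.1, with 26.5 in replicate 2 and no summit within 100 bp in replicate 1. In linc-153 (V:11641024-11643916, minus strand) an exonic peak 2612 bp into the gene gave 28.4, 21.8 and 53.1 in replicate 1, replicate 2 and the pool. The nearest protein-coding gene, bir-1, which encodes a survivin-like protein of cell division, started 3173 bp from that summit. The 5' end of the ncRNA gene T27F2.6 lay within 300 bp of it.

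The peak common to linc-110 and linc-133 lay at II:7836707-7837056, in an exon of linc-110 (II:7836075-7841128, minus strand) and 944 bp upstream of linc-133 (II:7837826-7841485, plus strand). It was 1468 bp upstream of cex-2, and the 5' ends of the ncRNA genes T09A5.16 and T09A5.21 lay within 300 bp. Replicate 1 gave 21.6 and replicate 2 gave 53.7, with 75.8 in the pool, so replicate 2 was 2.49 times replicate 1. Upstream of linc-105 (III:10718341-10719485, plus strand) by 671 bp, a peak in intergenic sequence gave the opposite order, with 64.1 in replicate 1, 34.3 in replicate 2 and 96.3 in the pool. The nearest protein-coding 5' end there was that of W09D10.4, 1479 bp from the summit. At linc-48 (X:17421887-17422340, plus strand) the summit 641 bp upstream fell in an exon of osm-11. It lay 336 bp downstream of the 5' end of that gene, just outside its promoter window, and within 300 bp of the 5' end of the ncRNA gene F11C7.9. The signals were 34.5 in replicate 1, 21.3 in replicate 2 and 51.3 in the pool. In all, 8 of the 11 unshared summits fell in a lincRNA exon. The share of the windows that is exon was not measured, so no preference for exons can be read from this count. Outside protein-coding promoters the gene bodies alone covered 186 of the 340 kb of the windows.

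**Figure D3:**
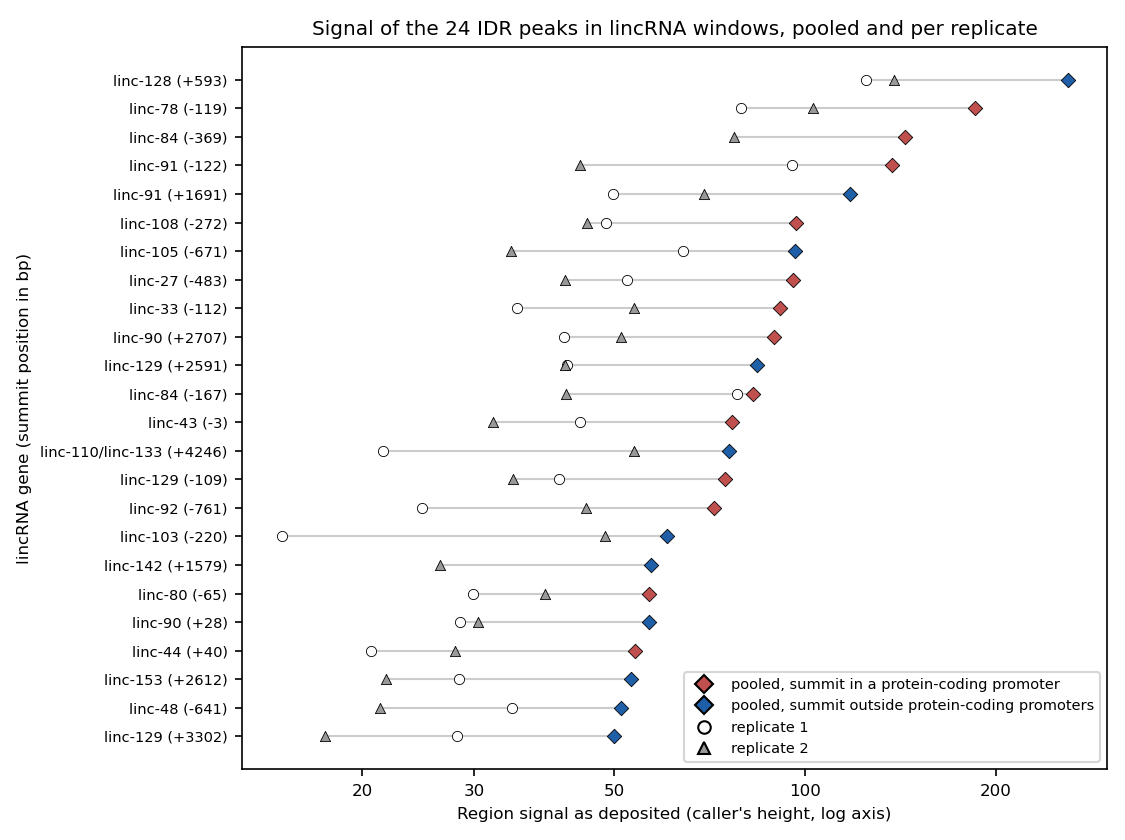
The x axis (log scale) gives the deposited signal of the 24 IDR peaks in lincRNA windows, 1 per row, named by gene and by the summit's distance in bp from its 5' end. Diamonds are pooled values, circles replicate 1 and triangles replicate 2. The linc-103 peak shows the widest gap between replicates (14.9 and 48.3), and linc-84 (-369) and linc-142 have no circle because replicate 1 had no summit within 100 bp.

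Over all 24 peaks the pooled signal ran from 49.9 to 260 with a median of 79.7, against a median of 72.3 for all IDR peaks, and 15 of the 24 lay above that median. The 13 shared peaks ran from 53.8 to 185 (median 89.2) and the 11 unshared from 49.9 to 260 (median 60.5), so the ranges overlapped nearly throughout. All IDR peaks had medians of 77.1 in protein-coding promoters and 68.2 elsewhere. A region was matched within 100 bp in both replicates for 22 of the 24 peaks, as for 93.1% of all IDR peaks. Replicate 2 was higher in 11 of these 22 and replicate 1 in the other 11, with ratios of replicate 2 to replicate 1 from 0.463 at the linc-91 5' peak to 3.24 at linc-103 (median 1.03). Of the 24, 15 ranked within the 1898 strongest regions of both replicates.

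Just above the IDR threshold stood linc-48 (51.3), linc-153 (53.1) and linc-44 (53.8), counting each gene by its strongest peak. Just below it stood linc-147 (III:3672048-3674245, plus strand), where a pooled region of signal 49.1 (rank 1933) lay 980 bp into the gene, with 16.3 in replicate 1 and 33.1 in replicate 2. Next came Y41C4A.17, with a pooled signal of 44.5 at 107 bp upstream of its 5' end, 27.2 in replicate 2 and no match in replicate 1, and linc-136, with 44.0 in the pool, 25.0 in replicate 1 and 24.2 in replicate 2. The protein-coding genes with the nearest 5' ends to these lincRNA 5' ends were C46F11.6 at 1612 bp, tbx-33, a T-box factor gene, at 4802 bp and str-30, a chemoreceptor gene, at 1338 bp. The 68 genes with a pooled region but no IDR peak had a strongest region of 14.3 to 49.1 (median 23.6). That region was matched in both replicates for 24 of them, in 1 replicate for 39 and in none for 5, and it lay in a protein-coding promoter for 15 (22.1%, 12.9 to 33.8). Counting the pooled list, 88 lincRNA genes had a region in their window (45.4%, 38.2 to 52.6), against 49.3% of protein-coding genes. Both windows ran to the gene end, and those of protein-coding genes were longer (median gene length 2027 bp against 761 bp). Windows of equal length were not compared here.

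The gene lep-5 was singled out for its known role, after its values were seen. Its RNA acts with the protein LEP-2 in timing the passage from larva to adult. Its window (gene at X:12652591-12653520, minus strand) held no region in the IDR list, the pooled list or either replicate list, and the nearest protein-coding 5' end was 6327 bp away.

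Shares were also taken by neighbourhood. The 5' end of 54 lincRNA genes (27.8%) lay in a protein-coding promoter window, and 11 of these had an IDR summit from 1000 bp upstream to the gene end (20.4%, 10.6 to 33.5), against 9 of the other 140 (6.43%, 2.98 to 11.9), and these intervals overlapped. The median distance from the lincRNA 5' end to the nearest protein-coding 5' end was 765 bp for genes with a summit and 2012 bp for those without. In the window of equal length, the share was 8 of 41 (19.5%, 8.82 to 34.9) where the promoter belonged to a gene on the opposite strand, 2 of 13 (15.4%, 1.92 to 45.4) where it belonged only to one on the same strand, and 6 of 140 (4.29%, 1.59 to 9.09) elsewhere. Protein-coding genes sorted by the same rule, using the promoters of other protein-coding genes, gave 489 of 3612 (13.5%, 12.4 to 14.7), 49 of 516 (9.50%, 7.11 to 12.4) and 675 of 15845 (4.26%, 3.95 to 4.59). The shares of both kinds of gene fell in the same order, and each lincRNA interval held the protein-coding value. Neighbouring genes can share 1 peak, and these differences were not tested.

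**Figure D4:**
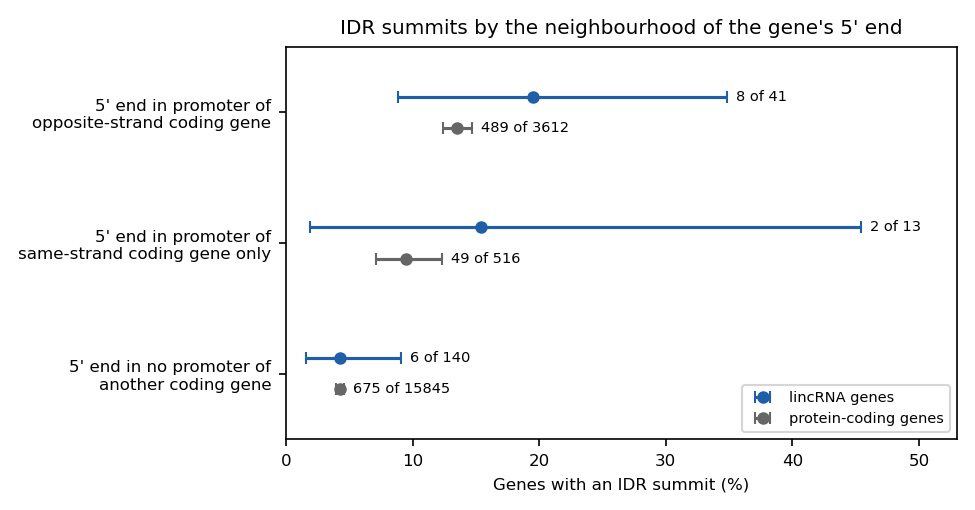
The x axis gives the percentage of genes with an IDR summit in the window of 1000 bp before and 200 bp after the 5' end, for lincRNA genes (blue) and protein-coding genes (grey), sorted on the y axis by whether the 5' end lay in the promoter window of another protein-coding gene. Bars are exact 95% intervals and the counts stand beside them. LincRNA genes in no such promoter stood at 4.29% and protein-coding genes at 4.26%.

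Counted per length, the lincRNA windows outside protein-coding promoters covered 340 kb and held 11 summits, or 32.4 per Mb (exact Poisson 95% interval 16.1 to 57.9). Among these 11, the summits at linc-153, at linc-48, 2591 bp into linc-129 and in the windows of linc-110 and linc-133 lay within 300 bp of an ncRNA gene's 5' end. The rest of the genome outside such promoters held 12.1 per Mb (11.4 to 12.9), but that rest includes coding sequence. The lincRNA 5' ends gave 35.8 per Mb there (2 summits, 4.33 to 129), the upstream parts 30.5 (3 summits, 6.28 to 89.1) and the gene bodies 32.3 (6 summits, 11.9 to 70.3). Outside protein-coding promoters the summits were thus not detectably denser at the lincRNA 5' end than elsewhere in the windows at these counts. The 5' ends of other non-coding genes, taken by the same rule outside protein-coding promoters, held 52.3 per Mb for ncRNA genes (43.2 to 62.8), 173 for transfer RNA genes (119 to 245) and 341 for snoRNA genes (236 to 476). Inside protein-coding promoters the lincRNA 5' ends held 9 summits in 21.9 kb, or 411 per Mb (188 to 780), against 77.2 (71.1 to 83.6) at the 5' ends of protein-coding genes. These groups are unlike. The non-coding 5' ends counted here lay in the promoter of another gene, whereas the protein-coding value covers all protein-coding 5' ends, with or without such a neighbour. The sorting by neighbourhood above matches genes on this, and there each lincRNA interval held the protein-coding value. It counts genes, however, in the wider window of 1000 bp before and 200 bp after the 5' end. It therefore cannot show whether the difference in density at the 5' end remains between matched genes, which was not tested. The 5' ends of other non-coding genes inside such promoters were also denser in summits than those of protein-coding genes in value, at 561 per Mb for snoRNA genes (347 to 858), 179 for transfer RNA genes (77.2 to 352) and 164 for ncRNA genes (135 to 198). The lincRNA interval overlapped those of the snoRNA, transfer RNA and ncRNA genes.

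The 20 genes with an IDR summit were spread over 5 chromosomes, with 6 of 38 lincRNA genes on X (15.8%), 4 of 43 on II (9.30%), 4 of 35 on V (11.4%), 3 of 29 on III (10.3%) and 3 of 23 on I (13.0%). On IV 0 of 26 held one, which allows a share of up to 11.5% by the limit of 3 counts and up to 13.2% by the exact interval used elsewhere. Protein-coding genes in the same kind of window held a summit in 8.06% of cases on X, 7.45% on II, 5.17% on V, 11.7% on III, 9.83% on I and 7.10% on IV. On each chromosome the exact interval of the lincRNA share held the protein-coding value. Of all 194 lincRNA genes, 42 (21.6%) overlapped a protein-coding gene in this annotation, so that the name intergenic did not hold for them. An IDR summit was found for 6 of these 42 (14.3%, 5.43 to 28.5) and for 14 of the other 152 (9.21%, 5.13 to 15.0).

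Motifs of 6 letters were searched on both strands within 100 bp of each summit. GAGAGA, a motif of many worm promoters, was present in 14 of the 24 peaks (58.3%, 36.6 to 77.9) and in 44.6% of all IDR peaks. TATAAA, the core of the TATA box, was in 0 of 24 and in 12.4% of all, CCGCCC in 3 of 24 (12.5%) and 9.43%, and TTTCAG in 4 of 24 (16.7%) and 16.5%. For each of the 4 motifs the exact interval of the lincRNA share held the value of all IDR peaks, with an upper bound of 14.2% for the TATA box.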

How the data were processed

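Tagged ZTF-4 was profiled by ChIP-seq in 2 biological replicates of L1 larvae. Deposited records state that each replicate and the pool were compared with a control to call regions, and that the IDR list was derived from those calls. For aligner, caller and cutoff, names were not given in the sources used here. A signal value for each region, deposited by the authors in the seventh column, was used as given. The −log10 q value that the authors deposited was not used, being tied at its maximum for most IDR peaks. The lists in assembly ce11 were placed on the genes of Ensembl release 115 (WBcel235 is that assembly under another name), and 0 regions ended beyond a chromosome. The ce10 lists were not used here.

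Summits were the deposited start plus offset, printed from base 1. Regions of replicates were matched to a peak by summits within 100 bp, the stronger taken. Shares have exact Clopper-Pearson 95% intervals and densities exact Poisson ones, which cover counting error only. With 1 group there was no test between conditions, and genes and peaks are not replicates. The genes named were those with an IDR summit and the 3 on each side of the threshold, each with its nearest protein-coding gene, and lep-5 was named outside this rule for its known role. The members, windows and comparisons were chosen with earlier results of these data known, and the densities and the sorting by neighbourhood were added after seeing the data. The window rules were tested on simulated data. Alternatives were other windows, each replicate alone (its 1898 strongest regions), the 949 stronger IDR peaks, the pooled list, region overlap and other matching distances. Python 3.11.15, pandas 2.3.3, numpy 2.4.6, scipy 1.17.1 and matplotlib 3.10.9 were used.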

Additional observations from a re-analysis of the deposited data

How the results depend on the processing

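The number of lincRNA genes with an IDR summit, 20, was 16 with 500 bp upstream or the window of equal length, 25 with 2000 bp upstream and 23 with any overlap. It was 13 with the 949 strongest IDR peaks, 46 with pooled regions matched in both replicates and 88 with the whole pooled list, each by construction of the list. With 1 replicate left out it was 16 to 21. Replicate 1 alone kept 16 of the 20 genes, without linc-103, linc-133, linc-44 and linc-92, and replicate 2 alone kept 18, without linc-153 and linc-48. The 2 genes with a 5' peak outside protein-coding promoters became 1 with 200 bp to each side, 8 with the narrow protein-coding promoter (300 bp upstream to 100 bp downstream) and 0 among the 949 strongest. With 1 replicate left out this number was 1 to 5, with linc-90 alone in replicate 1. The share of 54.2% shared with protein-coding promoters became 25% with the narrow promoter. It was 66.7% with the wide promoter (2000 bp upstream to 500 bp downstream) or the 949 strongest, and 44.8% to 50% with 1 replicate left out. Where the nearest 5' end decides, 5 of the 24 peaks (20.8%) went to a protein-coding gene. That rule is another measure, and its peaks are not a subset of the 13 shared ones. The density of 32.4 per Mb outside protein-coding promoters ran from 29.4 to 47.1 with 1 replicate left out. The counts of the other biotypes stayed within 1.5 times their values under each alternative run. No paired analysis was possible because there is 1 group. All 10 values that moved are given here, of 57 recomputed. Depth is unknown and limits what can be said of the weaker peaks.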
